A study of Mus musculus with 4 samples.

Results

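The genes described here encode the machinery of mitosis and of DNA replication, a list of 58 mouse genes chosen by function. Each gene was followed through the brightest probe set that the array's gene table assigns to its symbol alone. This gave values for 57 of the 58 listed genes, out of 19938 genes measured on the array, and Ccnb1 is not analysed here. RNA came from Py2T, a line grown from a mammary tumour of a mouse carrying the polyoma middle T oncogene under the MMTV promoter, whose cells take on mesenchymal features under TGFβ. Of 4 Affymetrix arrays, 2 were hybridised with RNA of cells given 2 ng/ml TGFβ for 5 days and 2 with RNA of untreated cells. All cells grew in DMEM with fetal calf serum. The labels call the samples biological replicates without saying what was kept separate, so p-values measure only the spread between these samples. Values are RMA log2 signals, in which 1 unit is a 2-fold difference.

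A dividing cell licenses its replication origins by loading the MCM helicase with Cdc6 and Cdt1, fires them with Cdc45 and the GINS complex, and copies DNA with clamp loaders, polymerases and ligase while ribonucleotide reductase supplies nucleotides. Cyclin B with Cdk1, Aurora and Polo kinases then drive mitosis, the kinetochore and its checkpoint hold chromosomes on the spindle, and the central spindle and actomyosin ring split the cell. E2F factors drive the replication genes, and the MuvB complex with B-Myb and FoxM1 drives many mitotic genes, partly through promoter elements called CHR. TGFβ is known as a growth inhibitor of normal epithelial cells, an effect that carcinoma cells often lose.

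The arrays read these genes well above the bottom of their range. Values of the 57 genes lay between 7.70 and 12.51, and all 57 had a mean among the brighter 50% of genes. The 4 arrays had medians of 6.756 and 6.744 (TGFβ) and 6.756 and 6.742 (untreated) over all probe sets. Of the 4 epithelial markers checked, the keratin genes Krt8 and Krt18 lay above 13 in all 4 arrays, and the adhesion genes Cdh1 and Epcam fell after TGFβ by 1.25 and 1.10 on the log2 scale (limma adjusted p = 0.017 and 0.0094). The 4 endothelial, 3 adipocyte and 5 leukocyte markers were not called in either direction. Of the leukocyte markers Ptprc and Adgre1 lay between 4.93 and 5.57, and Cd3e between 6.81 and 6.95. Cd68, a lysosomal protein of macrophages and other cells, had 7.60 and 8.33 in TGFβ cells and 9.63 and 8.87 in untreated cells (limma adjusted p = 0.052), and Csf1r had 7.08 and 7.27 in TGFβ cells and 7.90 and 7.35 in untreated cells (limma adjusted p = 0.20). Their part in the results below was not tested.

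The comparison asked which genes differ in level after TGFβ treatment. Of the 57 mitosis and replication genes 6 fell, 0 rose and 51 did not pass limma's moderated test at an adjusted p under 0.05. At an unadjusted limma p under 0.05, 16 were lower and 1 was higher. At this p 2663 of all 19938 genes were lower and 2537 higher. Of the 9969 genes in the brighter 50%, 2202 were lower and 2000 higher. The 6 that fell were Nusap1, Chaf1b, Anln, Ect2, Cenpf and Rfc4 and were 1.34- to 1.62-fold lower. They make up 10.5% of the 57, where 7.15% of all genes were called lower, and 6.49% of all genes were called higher. Among the brighter 50% of genes, which hold all 57, the share called lower was 12.2%, so 6 falls are near the background.

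Differences were small but mostly of one sign. The difference of means was below 0 in 47 of the 57 genes, against 47.2% of all genes, with a median of -0.15 on the log2 scale, against 0.0097 over all genes. The lowest difference was -0.69 in Nusap1 and the highest was 0.58 in Ccne2. The 95% interval of the difference lay within a 2-fold change in either direction for 56 of the 57 genes, as it did for 93.6% of all genes. Ccne2 was the exception, with an interval of -0.13 to 1.29. Fewer cycling cells and less of these RNAs per cell cannot be told apart in such bulk RNA. The median was -0.26 without TGFβ replicate 1, -0.041 without TGFβ replicate 2, -0.25 without untreated replicate 1 and -0.050 without untreated replicate 2. The count of falls was 6 without TGFβ replicate 1, 2 without TGFβ replicate 2, 5 without untreated replicate 1 and 2 without untreated replicate 2. Nusap1 and Anln fell in each of these 4 fits, and no other gene of the 57 did.

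**Figure D1:**
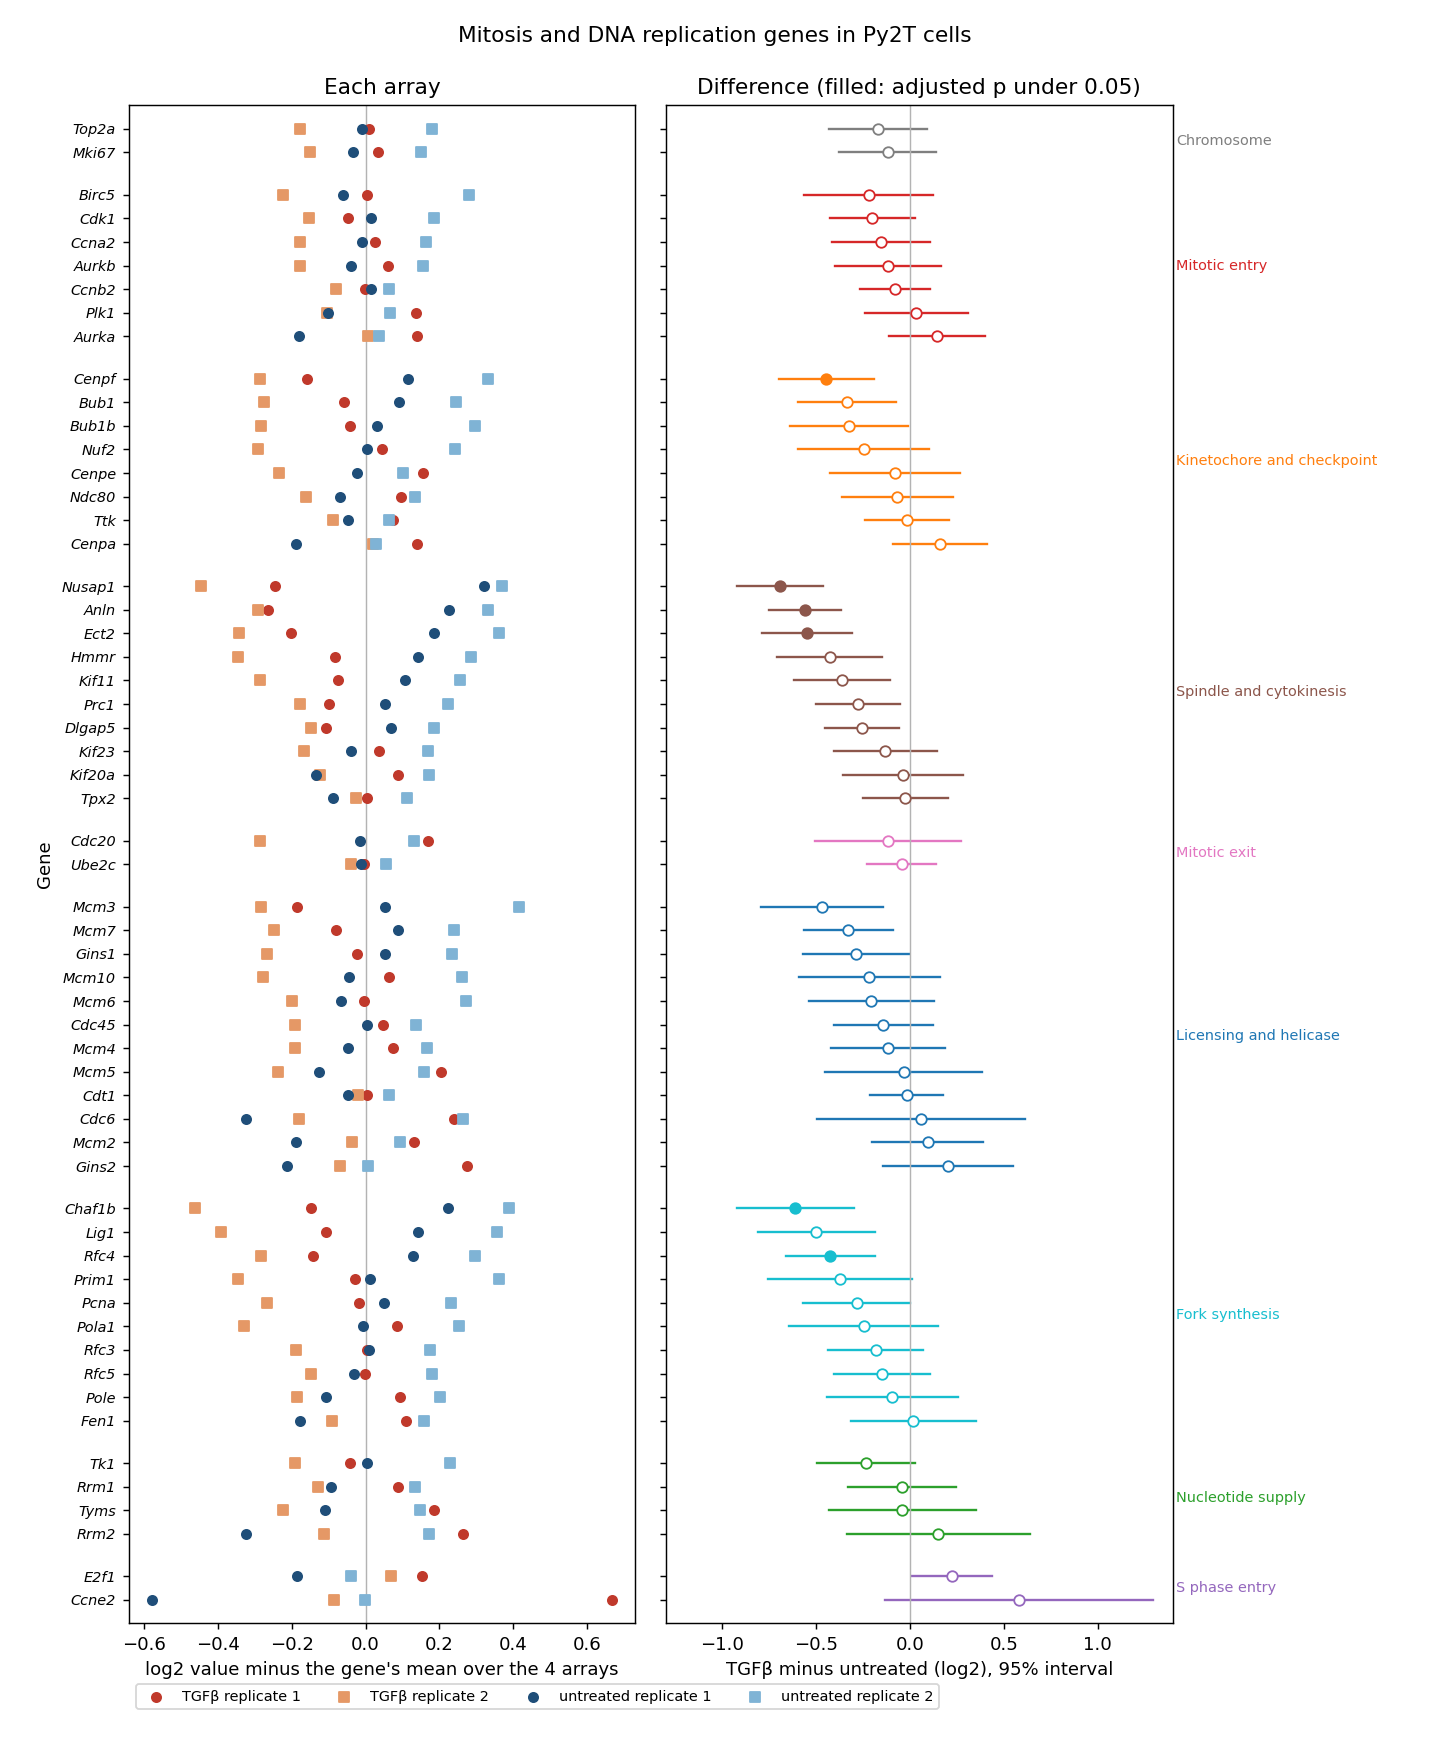
The left panel plots each gene's log2 value in the 4 arrays minus its mean over them, and the right panel the difference of TGFβ minus untreated means on the log2 scale with its 95% interval from limma, for 57 genes grouped by role. Filled points mark the 6 genes called at an adjusted p under 0.05, and the squares of TGFβ replicate 2 lie left of the circles of TGFβ replicate 1 in every row.

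The gaps between replicates of a condition were as large as the differences between conditions. The median of the larger gap was 0.24 over the 57 genes and the median size of the difference was 0.18. Over all genes these medians were 0.14 and 0.10, and over the brighter 50% of genes 0.17 and 0.19. The value of TGFβ replicate 1 was above that of TGFβ replicate 2 in 57 of 57 genes, by a median of 0.21. Untreated replicate 2 was above untreated replicate 1 in 57 of 57 genes, with a median of -0.20 for replicate 1 minus replicate 2. Among all genes 26.7% showed both of these orders, and among the brighter 50% of genes 34.9% did. The gaps ran from 0.025 (Cdt1) to 0.76 (Ccne2) between the TGFβ arrays, and from -0.049 (Ccnb2) to -0.59 (Cdc6) between the untreated arrays. Among the brighter 50% of genes TGFβ replicate 1 was above replicate 2 in 63.6%, with a median gap of 0.054, and untreated replicate 2 was above replicate 1 in 46.4%, with a median of 0.013 for replicate 1 minus replicate 2. Over all genes RMA sets such medians near 0. TGFβ replicate 2 was the lowest of the 4 arrays in 45 of the 57 genes, and untreated replicate 2 was the highest in 44.

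**Figure D2:**
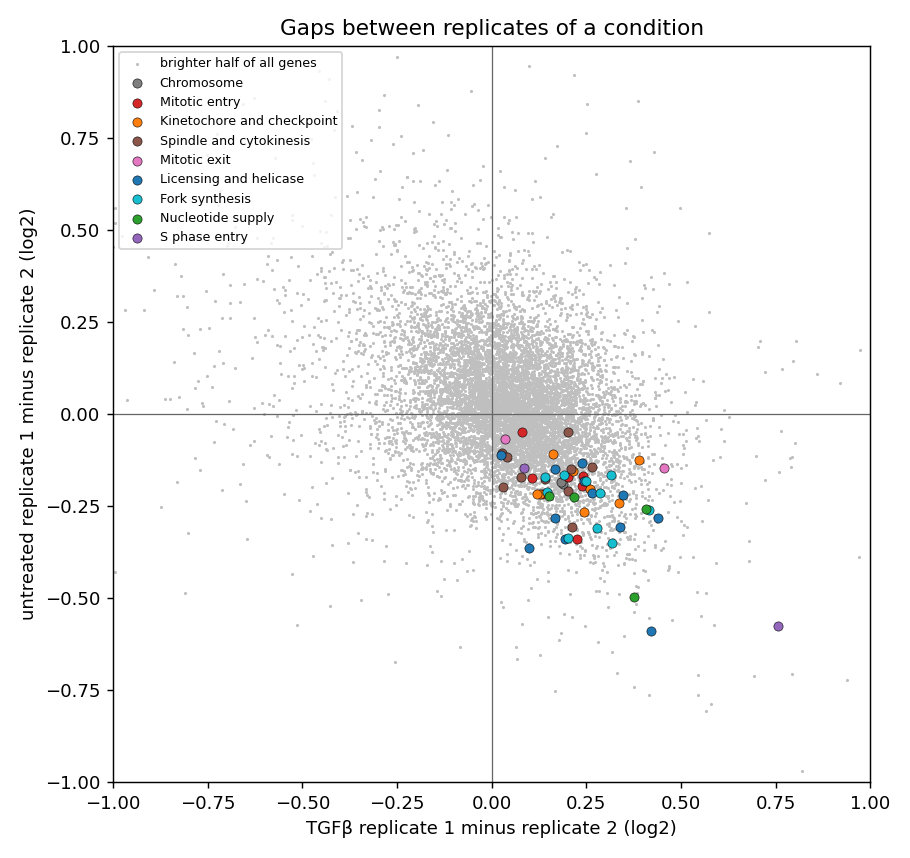
The horizontal axis is TGFβ replicate 1 minus replicate 2 and the vertical axis untreated replicate 1 minus replicate 2, both in log2 units, with 57 genes coloured by role over the brighter 50% of genes (9969) in grey, of which 39 lie outside the axes. All 57 coloured points lie in the lower right region, which holds 34.9% of the grey genes.

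Set against these gaps, 21 genes had both TGFβ arrays below both untreated arrays with a difference of means larger than the larger replicate gap. That is 36.8% of the 57, where 20.2% of all genes met the same rule on the lower side and 29.2% of the brighter 50% of genes did. On the higher side 1 of the 57 met it, E2f1, against 21.6% of all genes and 27.2% of the brighter 50% of genes. The count on the lower side was 35 without TGFβ replicate 1 (28.3% of all genes), 14 without TGFβ replicate 2 (30.3%), 34 without untreated replicate 1 (27.1%) and 15 without untreated replicate 2 (28.2%). On the higher side it was 1 without TGFβ replicate 1 (32.511% of all genes) and 1 without untreated replicate 1 (28.995%). The higher-side count was 4 without TGFβ replicate 2 (31.864%) and 8 without untreated replicate 2 (30.309%). Without the gap rule, 22 of the 57 genes had both TGFβ arrays below both untreated arrays and 1 had both above. Of all 19938 genes 4994 lay below in this way and 5494 above. Of the 9969 genes in the brighter 50%, 3379 lay below and 3231 above, so groups without overlap are common here. The 57 genes shared the order of their replicate gaps, so they are not independent cases.

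Spindle and cytokinesis genes held 3 of the 6 falls. All 10 had a difference below 0, with a median of -0.32, and 7 lay below the untreated arrays by more than the larger replicate gap. Of the brighter 50% of genes 12.2% were called lower, 49.6% had a difference below 0 and 29.2% met the gap rule on the lower side. The 10 genes share the order of their replicate gaps, so they are not independent cases. Nusap1, which bundles spindle microtubules around chromosomes, had 10.11 and 9.91 in TGFβ cells, against 10.67 and 10.72 in untreated cells. It was 1.62-fold lower, a log2 difference of -0.69 ± 0.093 (SE, limma adjusted p = 0.0078), and both TGFβ arrays were below both untreated arrays. Anln, the actomyosin ring scaffold anillin, had 11.32 and 11.29 in TGFβ cells, against 11.81 and 11.91 in untreated cells. Its difference was -0.56 ± 0.078 (SE, limma adjusted p = 0.0086), and its TGFβ arrays were nearly level. Ect2, the exchange factor that activates RhoA at the cleavage site, had 11.28 and 11.14 in TGFβ cells, against 11.67 and 11.84 in untreated cells. It differed by -0.55 ± 0.097 (SE, limma adjusted p = 0.019), a call lost without TGFβ replicate 2 (adjusted p = 0.062) or untreated replicate 2 (adjusted p = 0.082).

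The other genes of the group did not pass. Hmmr, a microtubule-associated hyaluronan receptor, had 9.30 and 9.03 in TGFβ cells and 9.52 and 9.66 in untreated cells. Its difference of -0.43 (limma adjusted p = 0.064) was -0.56 without TGFβ replicate 1. With all 4 arrays kept, Hmmr passed after cyclic loess scaling and without the dimmer 50% of genes. The bipolar spindle motor Kif11 differed by -0.36 and passed after cyclic loess scaling. Prc1, which bundles the midzone, differed by -0.28, and the spindle protein Dlgap5 by -0.26. In these 4 genes both TGFβ arrays were below both untreated arrays, as in 3379 of the 9969 genes in the brighter 50%. In Kif23 (-0.13) and Kif20a (-0.036), kinesins of the central spindle, and in Tpx2 (-0.024), which activates Aurora A, the groups overlapped.

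Kinetochore and checkpoint genes held the other mitotic fall. That is 1 of 8 genes (12.5%), near the 12.2% called lower among the brighter 50% of genes. Cenpf, a kinetochore protein that accumulates in G2, had 9.65 and 9.52 in TGFβ cells, against 9.92 and 10.14 in untreated cells. The groups did not overlap, and the difference was -0.44 ± 0.10 (SE, limma adjusted p = 0.042). Leaving out TGFβ replicate 1, TGFβ replicate 2 or untreated replicate 2 ended the call, with adjusted p of 0.074, 0.13 and 0.17, and median centring did too (0.059). The checkpoint kinases Bub1 and Bub1b differed by -0.33 and -0.33 without passing (adjusted p = 0.10 and 0.18), each with all TGFβ values below the untreated ones. Ttk, the kinase also called Mps1, differed by -0.016. The Ndc80 complex, which binds microtubules, had no called subunit among 4. Ndc80 differed by -0.067, Nuf2 by -0.25 and, from outside the 57 genes, Spc24 by -0.22 and Spc25 by -0.32. Cenpa, the histone variant of centromeres, had 11.59 and 11.47 in TGFβ cells and 11.26 and 11.48 in untreated cells (0.16), and the motor Cenpe differed by -0.078. Both overlapped between groups.

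None of 7 genes of mitotic entry was called, where 12.2% of the brighter 50% of genes were called lower and 10.7% higher. These 7 were the cyclins Ccna2 and Ccnb2, the kinases Cdk1, Aurka, Aurkb and Plk1, and Birc5, a partner of Aurkb. Their differences lay between -0.22 and 0.14. Cdk1, the kinase of mitotic entry, had 12.28 and 12.18 in TGFβ cells, against 12.34 and 12.51 in untreated cells (-0.20, adjusted p = 0.26), with the TGFβ values below by a narrow margin. Its cyclin partners Ccnb2 (-0.080) and Ccna2 (-0.15) and the passenger complex genes Aurkb (-0.12) and Birc5 (-0.22) were also lower without passing. Plk1 differed by 0.034 and Aurka by 0.14. The proliferation markers Mki67 (11.43 and 11.25 in TGFβ cells, 11.37 and 11.55 in untreated cells) and Top2a (-0.17), the topoisomerase that untangles chromosomes, overlapped between groups. So did Cdc20 (-0.12) and Ube2c (-0.044), the activator and the ubiquitin-conjugating enzyme of the anaphase-promoting complex. The 95% interval for Ube2c was -0.23 to 0.14 and that for Mki67 -0.37 to 0.14.

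None of the 12 licensing and helicase genes was called, where 12.2% of the brighter 50% of genes were called lower and 10.7% higher. A difference below 0 was seen in 9 of the 12 (median -0.13), against 49.6% of the brighter 50% of genes. Within the MCM2-7 ring, the replicative helicase, Mcm3 and Mcm7 stood lowest. Mcm3 had 10.43 and 10.33 in TGFβ cells, against 10.67 and 11.03 in untreated cells (-0.47, adjusted p = 0.076), and Mcm7 differed by -0.33 (adjusted p = 0.087), both without overlap. Both passed when the variance trend and robust estimation were used together (limma adjusted p = 0.044 and 0.045), and Mcm7 passed after cyclic loess scaling. Mcm3 also passed without untreated replicate 1 (-0.65, adjusted p = 0.028). The other ring subunits overlapped between groups, at -0.20 for Mcm6, -0.12 for Mcm4, -0.033 for Mcm5 and 0.096 for Mcm2. The initiation factor Mcm10 differed by -0.22 and Cdc45, part of the active helicase, by -0.14. Of the GINS subunits Gins1 differed by -0.29 (adjusted p = 0.18) and Gins2 by 0.20 (adjusted p = 0.47). Of the loaders, Cdt1 differed by -0.016, with a 95% interval of -0.21 to 0.18, and Cdc6 by 0.061, with a gap of -0.59 between its untreated arrays.

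Of 10 genes of DNA synthesis at the fork, 2 fell and 9 had a difference below 0 (median -0.26). In the brighter 50% of genes 12.2% were called lower and 49.6% had a difference below 0. Chaf1b, the middle subunit of the chromatin assembly factor that places histones behind the fork, had 10.12 and 9.80 in TGFβ cells, against 10.49 and 10.65 in untreated cells. It was 1.53-fold lower (-0.61 ± 0.13, SE, limma adjusted p = 0.030), and leaving out TGFβ replicate 2, untreated replicate 1 or untreated replicate 2 ended the call, with adjusted p of 0.067, 0.061 and 0.12. Rfc4, a subunit of the clamp loader, had 11.10 and 10.96 in TGFβ cells, against 11.37 and 11.54 in untreated cells (-0.42 ± 0.096, SE, limma adjusted p = 0.040). The groups did not overlap, but the Rfc4 call was lost without any one of the 4 arrays (adjusted p between 0.062 and 0.17) and after median centring (adjusted p = 0.059). All 5 clamp loader genes, Rfc1 and Rfc2 from outside the 57 included, had differences between -0.42 and -0.15. Rfc1 and Rfc2 were added after their values were seen. Of the 5 genes 1 (20.0%) lay below the untreated arrays by more than the larger replicate gap. In the brighter 50% of genes 29.2% did.

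Lig1, which seals Okazaki fragments, had 9.80 and 9.51 in TGFβ cells and 10.05 and 10.26 in untreated cells. Its difference of -0.50 missed the threshold (limma adjusted p = 0.057), and was -0.64 without TGFβ replicate 1. It passed after repeated quantile normalization (limma adjusted p = 0.044), after cyclic loess scaling and with either filter on dim genes. It also passed with the variance trend and robust estimation together (limma adjusted p = 0.038). Pcna, the sliding clamp, differed by -0.28 in each of 2 probe sets with nearly the same values, and the primase subunit Prim1 by -0.37, both with TGFβ below untreated in every array and without passing. The clamp loader gene Rfc3 (-0.18) did not overlap between groups, but its difference was smaller than its larger gap. The polymerase genes Pola1 (-0.25) and Pole (-0.094), the clamp loader gene Rfc5 (-0.15) and the flap nuclease Fen1 (0.018) overlapped.

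Nucleotide supply showed no call among 4 genes, where 12.2% of the brighter 50% of genes were called lower and 10.7% higher. Rrm1 and Rrm2, the subunits of ribonucleotide reductase, differed by -0.041 and 0.15, and Tyms, thymidylate synthase, by -0.039. Rrm2 had 11.68 and 11.30 in TGFβ cells and 11.09 and 11.59 in untreated cells, so its replicates lay farther apart than the groups. Tk1, the S phase thymidine kinase, differed by -0.23 and its second probe set by -0.30, neither called. The second probe set of Top2a lay between 4.50 and 5.24, near the bottom of the range, and differed by -0.50 (adjusted p = 0.057).

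The 2 genes of S phase entry differed in the other direction without passing. E2f1, the activating E2F factor, had 10.69 and 10.60 in TGFβ cells, against 10.35 and 10.49 in untreated cells (0.22, adjusted p = 0.17), and the groups did not overlap. Ccne2, a cyclin that activates Cdk2, had 8.95 and 8.20 in TGFβ cells and 7.70 and 8.28 in untreated cells (0.58, adjusted p = 0.29). Its groups overlapped, and its gap of 0.76 between TGFβ arrays was the widest of the 57 genes. Outside the list its relative Ccne1 rose 2.04-fold, with 11.05 and 10.67 in TGFβ cells and 9.56 and 10.10 in untreated cells (limma adjusted p = 0.028). The Ccne1 call was lost without TGFβ replicate 1 (0.84, adjusted p = 0.093) or untreated replicate 1 (0.76, adjusted p = 0.063).

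Promoter sequences were set beside these values because mitotic and replication genes are known to differ in their promoter elements. RefSeq windows of the GRCm38.p6 build, from 250 bases before to 50 after a start, were found for 47 of the 57 genes (53 windows), and none for Ccna2, Aurkb, Mcm4, Ccne2, Gins1, Kif20a, Gins2, Dlgap5, Pole and Tpx2. They were searched on both strands for CHR (TTTGAA or TTCGAA), the CCAAT box (CCAAT) and the E2F core (TTGGCGC or TTGCCGC or TTCGCGC or TTCCCGC). A CHR was present in 22 of 26 windows of mitosis genes and in 5 of 27 windows of replication and S phase entry genes, against 19.2% of all 32851 windows. An E2F core was present in 5 of the 26 and 17 of the 27, against 9.57% of all windows, and a CCAAT box in 21 of the 26 and 14 of the 27, against 37.4%. The median difference after TGFβ was -0.14 in 25 genes with a CHR and -0.22 in 22 without. It was -0.20 in 19 genes with an E2F core and -0.15 in 28 without, and -0.18 in 32 genes with a CCAAT box and -0.22 in 15 without. Among the genes with a window, 3 of the 6 falls had a CHR, 3 had an E2F core and 2 had a CCAAT box. A match describes letters only, and binding was not measured.
The windows below run from 150 bases before to 30 after the start, 5′ to 3′, with matches in capitals (a match on the other strand reads TTCAAA for CHR, ATTGG for the CCAAT box and GCGGGAA for E2F). Nusap1, the largest fall, has none of the 3 motifs. Cenpf fell and Ube2c did not pass, and both carry a CHR and CCAAT boxes. Rfc4 fell and Rrm1 did not pass, and both carry an E2F core.
Nusap1 (chr2:119618148-119618327, plus strand): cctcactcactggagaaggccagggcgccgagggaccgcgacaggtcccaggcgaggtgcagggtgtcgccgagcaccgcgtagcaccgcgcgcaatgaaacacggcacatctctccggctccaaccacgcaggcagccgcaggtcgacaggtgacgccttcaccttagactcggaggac
Cenpf (chr1:189688057-189688236, minus strand): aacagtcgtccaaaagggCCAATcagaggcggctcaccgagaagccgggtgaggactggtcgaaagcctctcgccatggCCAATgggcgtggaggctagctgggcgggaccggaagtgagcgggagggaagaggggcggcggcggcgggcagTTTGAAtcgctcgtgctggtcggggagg
Ube2c (chr2:164769779-164769958, plus strand): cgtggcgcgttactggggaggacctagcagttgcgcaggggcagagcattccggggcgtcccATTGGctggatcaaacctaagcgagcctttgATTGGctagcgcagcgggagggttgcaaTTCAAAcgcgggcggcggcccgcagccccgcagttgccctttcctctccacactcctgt
Rfc4 (chr16:23127701-23127880, minus strand): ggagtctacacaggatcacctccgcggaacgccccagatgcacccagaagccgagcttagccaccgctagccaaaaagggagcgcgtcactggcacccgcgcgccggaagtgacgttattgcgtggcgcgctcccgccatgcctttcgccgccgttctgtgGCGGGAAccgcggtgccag
Rrm1 (chr7:102441545-102441724, plus strand): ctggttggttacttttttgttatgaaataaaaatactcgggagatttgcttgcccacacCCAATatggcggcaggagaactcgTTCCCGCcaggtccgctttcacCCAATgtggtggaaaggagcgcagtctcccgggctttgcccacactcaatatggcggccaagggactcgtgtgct

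Other genes of mitosis, replication and their control were read from lists by function, with 176 measured genes in all. Of these 17 fell, 4 rose and 155 did not pass, with a median difference of -0.15. This is 9.66% lower and 2.27% higher, where 7.15% and 6.49% of all genes were called. Of the 176 genes 171 lie among the brighter 50% of genes, where 12.2% were called lower and 10.7% higher. TGFβ replicate 1 was above replicate 2 and untreated replicate 2 above replicate 1 in 144 of them. There were 24 falls and 1 rise without TGFβ replicate 1, 9 and 5 without TGFβ replicate 2, 13 and 1 without untreated replicate 1, and 7 and 4 without untreated replicate 2.

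The largest difference in the lists was in Psrc1, a microtubule regulator of the spindle. Psrc1 had 8.76 and 8.91 in TGFβ cells, against 11.19 and 10.98 in untreated cells, and was 4.76-fold lower (-2.25 ± 0.10, SE, limma adjusted p = 3.7e-04). Its 4 values did not follow the replicate gaps of the 57 genes, since TGFβ replicate 2 and untreated replicate 1 were the higher ones. Against 12.2% lower and 10.7% higher in the brighter 50% of genes, 4 of 43 spindle and chromosome genes (9.30%) fell and 0 rose. The other 3 were Ncaph, a condensin subunit (-0.59), Ckap2, a spindle microtubule protein (-0.55), and the kinase Melk (-0.51). Of 8 condensin genes Ncaph was the 1 called. Leaving out untreated replicate 2 ended the Ncaph call (adjusted p = 0.059), and each of 3 arrays ended those of Ckap2 (0.067 to 0.13) and Melk (0.052 to 0.11).

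Among 38 kinetochore and centromere genes 6 fell (15.8%) and 1 rose (2.63%), against 12.2% and 10.7% of the brighter 50% of genes. The inner kinetochore genes Cenpm (-0.65), Cenph (-0.62) and Cenpq (-0.60) fell, while Cenpt, which links the inner kinetochore to the Ndc80 complex, rose by 0.46 on the log2 scale. Mis18a (-0.52) and Oip5 (-0.48), both needed to load Cenpa at centromeres, and the checkpoint gene Mad1l1 (-0.36) fell as well. Of 49 replication genes 2 fell (4.08%) and 0 rose, against the same 12.2% and 10.7%. The falls were in the polymerase epsilon subunit Pole2 (-0.52) and the licensing inhibitor Gmnn (-0.43). Of these 8 falls Cenpm alone was called with each array left out in turn. The Mis18a call ended without untreated replicate 2 (adjusted p = 0.051), those of Cenph (up to 0.11) and Cenpq (up to 0.13) without either of 2 arrays, and those of Oip5, Pole2 and Gmnn without any of 3. Mad1l1 was called in none of these 4 fits. The rise of Cenpt ended without TGFβ replicate 1 (0.11), untreated replicate 1 (0.16) or untreated replicate 2 (0.071).

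Of 46 genes of cell cycle transcription and kinase control 5 fell (10.9%) and 3 rose (6.52%). In the brighter 50% of genes 12.2% were called lower and 10.7% higher. The phosphatase Cdc25b, which activates Cdk1 at mitotic entry, had 8.98 and 9.01 in TGFβ cells, against 9.96 and 10.19 in untreated cells (-1.08, limma adjusted p = 0.0022). The phosphatase Cdkn3 fell by 1.05, the Cdk4 and Cdk6 inhibitor Cdkn2c fell by 0.97 and Cdk6 itself fell by 0.62 on the log2 scale. The other fall was Ccnd1, cyclin D1 (-0.37), a call lost without any one of the 4 arrays. The rises beside Ccne1 were Tfdp2, the dimer partner of E2F factors (0.82), and Cdc25a, the S phase activating phosphatase (0.57), whose call ended without TGFβ replicate 1 (adjusted p = 0.12) or untreated replicate 1 (0.14).

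No E2F gene was called among 8, where 12.2% of the brighter 50% of genes were called lower and 10.7% higher. The repressors E2f7 and E2f8 differed by -0.44 and -0.56 (adjusted p = 0.16 and 0.077), and E2f8 passed without untreated replicate 1 (-0.76, adjusted p = 0.035). The mitotic activators Foxm1 (0.16) and Mybl2 (0.16) and the pocket proteins Rb1 (-0.054) and Rbl1 (-0.43) did not pass, nor did the inhibitors Cdkn1b (-0.31) and Cdkn2b (0.43) or Myc (0.20). Cdkn1a is not analysed here.

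**Figure D3:**
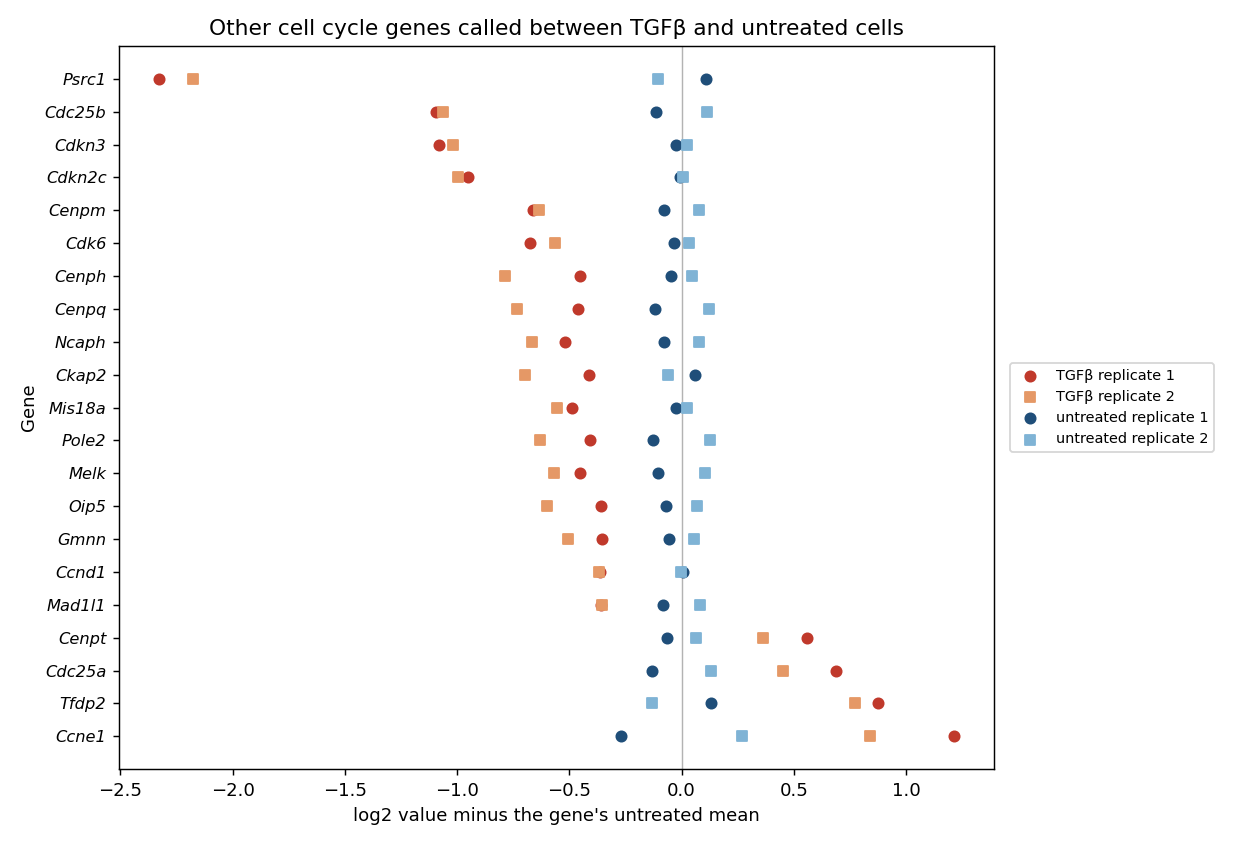
Each row is 1 of the 21 other cell cycle genes called by limma, with the log2 values of the 4 arrays drawn relative to the gene's untreated mean. The TGFβ points of the 17 falls lie left of 0 and those of the 4 rises right of it. Psrc1, with a mean difference of -2.25, has the TGFβ points farthest from 0.

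**Figure D4:**
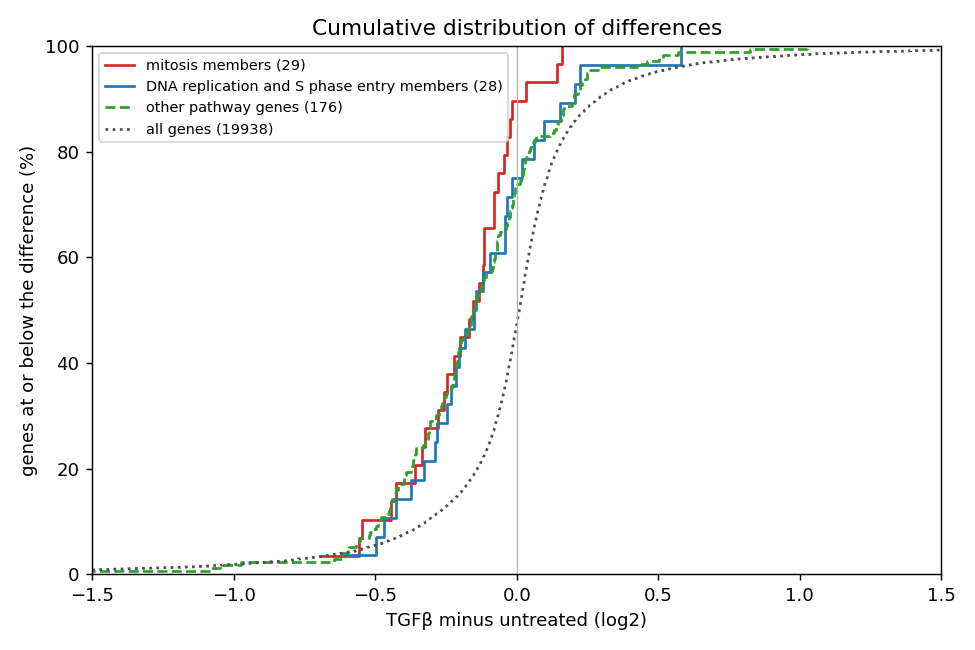
The curves give the share of genes (percent) at or below each difference of TGFβ minus untreated means (log2), for 29 mitosis genes, 28 replication and S phase entry genes, the 176 other genes of the pathway and all 19938 genes. The first 3 curves cross 50% near -0.15 and the curve of all genes near 0.0097.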

How the data were processed

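RNA of 2 TGFβ-treated and 2 untreated Py2T cultures was hybridised to Affymetrix arrays. The deposited log2 values per probe set were made by the authors with RMA in the R package oligo, per the submitters' processing notes, which give no version. Of the probe sets, 21789 carry 1 gene symbol in the array's table, 1621 several and 12146 none. The brightest single-symbol probe set stood for each of 19938 genes, with no filter or further scaling.

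Differences (TGFβ minus untreated) were tested with limma 3.58.1 in R 4.3.3, two-sided, with 2 residual and 3.77 prior degrees of freedom, Benjamini-Hochberg adjustment over all genes and a threshold of 0.05. The fit was tested on simulated data with independent genes and differences larger than any of the 57 genes showed. That test does not cover differences as small, or replicate gaps as shared, as those reported here. The number of arrays limits precision, and 2 against 2 arrays allow no exact two-sided permutation p under 0.333. Alternatives were other scalings, filters on dim genes, probe set means, a variance trend with robust estimation, a replicate block and leaving out each array, where the remaining array of a group is taken to vary as the other group does. Members, lists and motifs were chosen with earlier results of these data known. Besides the 57 genes, the text names markers and the called genes of each list (each list had at most 8). It also names Foxm1, Mybl2, E2f7, E2f8, Rb1, Rbl1, Cdkn1b, Cdkn2b, Myc, Ccnd1 and Ccne1. The complex partners Spc24, Spc25, Gins3, Gins4, Rfc1 and Rfc2 were added after their values were seen.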

Additional observations from a re-analysis of the deposited data

How the results depend on the processing

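Of the 57 genes, 6 were called lower and 0 higher as reported. The number called lower was 4 after median centring, 10 after cyclic loess and 2 to 6 with 1 array left out. All 6 remained called under repeated quantile normalization, cyclic loess, both filters on dim genes, probe set means, and the variance trend with robust estimation. The difference of 18 genes, called under none of the alternatives, changed sign under at least 1. Over all genes 2720 were called, and 1535 to 2260 with 1 array left out. Leaving out 1 array also gave 7 to 24 other pathway genes lower and 1 to 5 higher, a median difference of the 57 genes between -0.26 and -0.041, and 14 to 35 of them lower and 1 to 8 higher by more than the larger replicate gap. Replicate numbers are shared in the labels, which do not say that they mark a shared batch, so they were not taken as pairs. Deviations of same-numbered arrays correlated at -0.213 over genes, which cannot settle whether cultures were paired. With the replicate block 2 of the 57 genes fell, 8 other pathway genes were lower and 1 higher, and 1624 of all genes were called. A crossed pairing, chosen after seeing the data, gave 14 of the 57 genes lower and 1 higher. It gave 50 other pathway genes lower and 7 higher, and 3640 of all genes called. This pairing follows the replicate gap order that all 57 genes share and takes that gap out of their spread. Its counts are therefore no evidence of more falls. The cause of these shifts was not tested. Signal limits what can be said of Gmnn (6.73 to 7.29) and of the second Top2a probe set.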
